A study of Homo sapiens with 4 samples.

Results

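The data describe 10 hematopoietic cytokine receptor genes in MV4-11 cells, a human acute myeloid leukemia (AML) cell line, with and without knockdown of the transcription factor CEBPG. The genes are FLT3, KIT, CSF1R, CSF2RA, CSF2RB, CSF3R, IL3RA, IL6R, IL6ST and IL10RA. They were chosen by name, as were the lists of other genes below, with earlier results of these data known. All RefSeq rows carrying a symbol of these 10 genes were taken and summed per library. All 10 were listed, among 16490 genes with values. The hairpins against CEBPG were carried by a pLKO.1-puro lentivirus, and infected cells were selected with puromycin. The control group, sh-NC, carried a control hairpin, and the knockdown group, sh-CEBPG#3, carried a hairpin against CEBPG. Each group had 2 RNA-seq libraries, and the vector of the control hairpin is not given in the sources used here. Whether a group's libraries derive from separate infections is not given in the sources used here, so the p-values measure the spread between these libraries, which may be technical. With 1 hairpin sequenced, loss of CEBPG and other effects of that hairpin cannot be told apart.

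Cytokine receptors tell blood cells whether to divide, survive or mature. FLT3, KIT and CSF1R are class III receptor tyrosine kinases, which phosphorylate themselves once their ligand has paired them. CSF2RA, CSF2RB, IL3RA, CSF3R, IL6R and IL6ST belong to the class I cytokine receptors and IL10RA to class II, and these have no kinase of their own and signal through bound JAK kinases and STAT factors. Several work as pairs of a ligand-specific chain and a shared chain. CSF2RB (the common beta chain) serves the GM-CSF receptor CSF2RA and the IL-3 receptor IL3RA, IL6ST (gp130) serves the IL-6 receptor IL6R, and IL10RB serves IL10RA. MV4-11 cells are known to carry an internal tandem duplication in FLT3, which the values per transcript do not tell apart from the wild-type sequence.

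Values are FPKM, fragments scaled to transcript length and to the mapped reads of the library, and changes are log2 fold changes of FPKM + 1 in sh-CEBPG#3 over sh-NC cells, a scale on which changes at low levels come out too small. They were tested with limma across the 12142 genes whose mean reached 0.5 FPKM, and p-values were adjusted over all of these by the Benjamini-Hochberg method. Pairs of values give replicate 1 and then replicate 2. A gene is said to have risen or fallen at an adjusted p under 0.05. The FPKM totals of the libraries lay between 364353 and 389766, and their read depth is unknown. CEBPG had 30.4 and 33.6 FPKM under sh-NC and 19.2 and 17.1 FPKM under sh-CEBPG#3, so that 56.8% of the control level remained (log2 fold change -0.78, standard error 0.09, limma adjusted p = 8.88e-05). The myeloid identity of the cells showed in CD33, SPI1, LYZ, CD68, MPO, ITGAM, HOXA9, HOXA10 and MEIS1, which had at least 3.29 FPKM in every library. The monocyte marker CD14 was below the filter. It had 0.187 FPKM and a listed 0 under sh-NC, and 1.09 and 0.697 FPKM under sh-CEBPG#3. Of 9 myeloid markers tested, 5 rose and 3 fell, or 88.9% beside 42.2% of all genes tested. The largest change was that of LYZ, from 589 ± 30.9 to 3050 ± 102 FPKM (mean ± SD, n = 2). Of 7 lymphoid markers, CD3D, CD3E, CD2 and MS4A1 were not listed, and the summed level of the rest was 43.2 and 43.4 FPKM in sh-NC cells and 54.4 and 57.3 FPKM in sh-CEBPG#3 cells, nearly all from NKG7. The 7 erythroid and platelet markers summed to at most 0.138 FPKM. The 6 genes taken as markers of adherent cells summed to 30.7 and 34.7 FPKM in sh-NC cells and 59.4 and 55.7 FPKM in sh-CEBPG#3 cells. Most of this came from PECAM1 (18.5 and 21.8 against 43.4 and 40.8 FPKM) and nearly all the rest from KRT18 and KRT8, with EPCAM and COL1A2 not listed. Whether these genes mark adherent cells in this culture was not tested. The part of these shifts in the receptor results was not tested. In RNA from a whole culture, fewer cells of a kind and less RNA per cell cannot be told apart.

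FLT3 was the most abundant of the receptor mRNAs in both groups. In sh-NC cells the order of the mean levels was FLT3 (71.3 FPKM), IL6R (35.9 FPKM), CSF3R (29.4 FPKM), IL3RA (15.2 FPKM), CSF1R (4.47 FPKM), CSF2RB (2.63 FPKM), IL10RA (2.24 FPKM), CSF2RA (1.17 FPKM), IL6ST (0.991 FPKM) and KIT (0.154 FPKM). The libraries of neighbours in this order did not overlap, except those of CSF2RA and IL6ST. FLT3 lay above 94.2% of the genes tested in sh-NC cells, and IL6ST above 8.27%. In sh-CEBPG#3 cells the first 4 genes kept their places, IL10RA (8.95 FPKM) stood above CSF1R (8.51 FPKM), and IL6ST (2.63 FPKM) stood above CSF2RA (0.607 FPKM). No neighbours overlapped in that group.

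**Figure D1:**
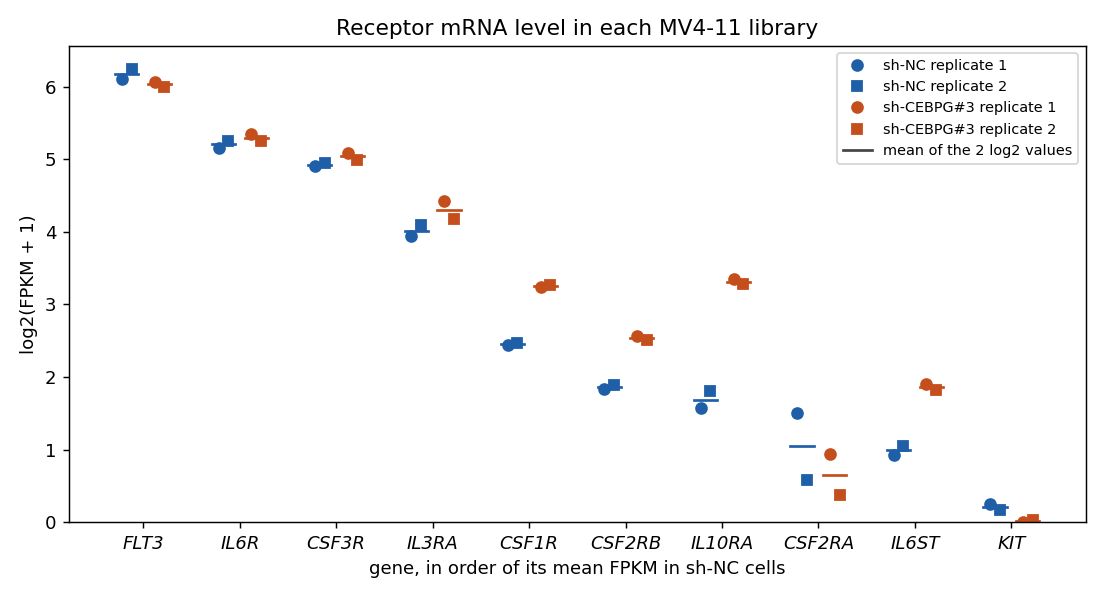
Level of the 10 receptor mRNAs in each of the 4 MV4-11 libraries, as log2(FPKM + 1); circles and squares are replicates 1 and 2 and bars are the means of the 2 log2 values. CSF1R, CSF2RB, IL10RA and IL6ST lie higher in both sh-CEBPG#3 libraries, and so, by smaller margins, do IL3RA and CSF3R. FLT3 stays the highest of the 10, and the 2 sh-NC libraries of CSF2RA are far apart.

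Of the 10 receptor genes 9 were tested, and KIT was below the filter. IL10RA, IL6ST, CSF1R, CSF2RB and IL3RA rose, none fell, and FLT3, CSF3R, IL6R and CSF2RA did not pass the test. The 5 genes that rose each had a mean above 0.5 FPKM in sh-NC cells, so none had passed the filter through the knockdown libraries alone. These 5 are 55.6% of the 9 tested, and among all genes tested 42.2% passed the same threshold, 18.5% as higher and 23.8% as lower. With an absolute log2 fold change above 1 in addition, 3.37% of all genes passed, 2.33% as higher and 1.04% as lower, and of the receptors only IL10RA did. The median log2 fold change was 0.28 over the 9 receptors and -0.04 over all genes tested. The groups did not overlap for 7 of the 9 receptors and for 71.7% of all genes tested. IL10RA, IL6ST, CSF1R and CSF2RB rose under each of the 12 alternative settings run, and IL3RA did not.

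**Figure D2:**
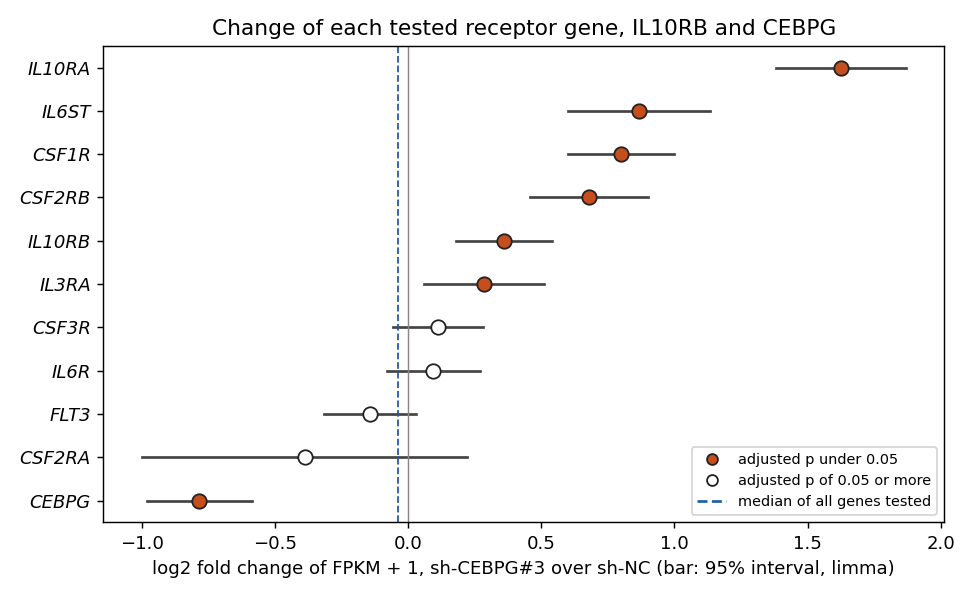
Log2 fold change of FPKM + 1 in sh-CEBPG#3 over sh-NC cells for the 9 receptor genes tested, IL10RB and CEBPG, with 95% intervals from limma; filled points passed an adjusted p under 0.05. IL10RA stands highest at 1.63, IL6ST, CSF1R and CSF2RB follow between 0.68 and 0.87, and the intervals of CSF3R, IL6R, FLT3 and CSF2RA include 0.

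Short stretches of the receptor promoters are shown because CEBPG is a bZIP protein that binds C/EBP sites, and because PU.1 (SPI1) and RUNX1 are textbook regulators of CSF1R. RefSeq windows of 300 bases (GRCh38.p14, from 250 bases before the annotated start to 50 after it) covered 9 of the 10 genes with 11 windows, and CSF2RB had none. Letters were searched on both strands. The C/EBP letters TTGCNNAA lay in the windows of CSF3R, IL10RA and IL3RA, and in 10.5% of all 35116 windows. The PU.1 letters GAGGAA lay in those of CSF1R, CSF2RA, CSF3R, FLT3, IL10RA and IL6R, and in 27.9% of all windows. The RUNX letters TGTGGT lay in those of CSF1R and CSF3R, and in 13.1% of all windows. The STAT letters TTCNNNGAA lay in that of IL3RA, and in 7.66% of all windows. The composite C/EBP-ATF letters TGATGNAA and the interferon-stimulated response element lay in no receptor window, and in 3.62% and 3.57% of all windows. The stretches below are written 5′ to 3′ on the strand of the gene, with the searched letters (C/EBP in the first 3, PU.1 in the next 3, RUNX in the last) in capitals.
IL10RA, plus strand, chr11:117989737-117989766: cggagaactagTTGCCCAAacagggcagga
CSF3R, minus strand, chr1:36483502-36483531: aatattcagtgTTGCAGAAccattgtgggt
IL3RA, plus strand, chrX:1336535-1336564: acagaaacacTTGCAGAAaaaaaaaaaaat
IL10RA, plus strand, chr11:117989913-117989942: agggttcagggaGAGGAAgcgaatccatga
CSF1R, minus strand, chr5:150086557-150086586: cagcccaaggagGAGGAAgaggaaaacaag
FLT3, minus strand, chr13:28100646-28100675: ctggggagagggTTCCTCcccccttccact
CSF1R, minus strand, chr5:150086608-150086637: atttccaaactcTGTGGTtgccttgcctag
The C/EBP letters thus occurred near an annotated start of IL10RA, which rose clearly, and of IL3RA, which was near the threshold. They also occurred near a start of CSF3R, which did not pass the test. The IL10RA stretches lie inside a gene span that starts at 117986394, and the CSF1R stretches inside a span that ends at 150113365 (minus strand). Their windows thus belong to starts within the genes, and not to the outermost listed starts. A match is a string of letters and no measurement of binding.

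Among the receptor tyrosine kinases CSF1R rose, while FLT3 stayed near its control level and KIT was close to absent. CSF1R, the receptor for CSF-1 and IL-34 that drives monocyte and macrophage development (chromosome 5, 150053295 to 150113365), had 4.41 and 4.52 FPKM under sh-NC and 8.42 and 8.60 FPKM under sh-CEBPG#3. The knockdown libraries were both higher, by a ratio of means of 1.91, and the libraries within each group lay close together. The log2 fold change of CSF1R was 0.80 (standard error 0.09, limma adjusted p = 8.5e-05). Its PU.1 letters stand in 2 adjoining copies in the stretch shown above, of which only the first is in capitals. Another match in the same window has its first base at position 20 after the start of that window.

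FLT3, the receptor for FLT3 ligand on early progenitors (chromosome 13, 28003274 to 28100576), had 67.6 and 75.0 FPKM under sh-NC and 66.0 and 62.8 FPKM under sh-CEBPG#3. All 4 values lay within a narrow band and the knockdown values were the lower ones, with no overlap. Mean FPKM went from 71.3 ± 5.2 to 64.4 ± 2.29 (SD, n = 2 each), or 90.3% of control. The log2 fold change was -0.14 with a 95% interval from -0.32 to 0.03 (limma adjusted p = 0.161), so the difference did not exceed the spread between libraries by this test. It passed the threshold when the library totals were made equal (-0.17, limma adjusted p = 0.0136) and with quantile normalization (-0.17, limma adjusted p = 0.0134). Without sh-NC replicate 1 the log2 fold change was -0.22, and without sh-NC replicate 2 it was -0.07. The genes whose log2 values over the 4 libraries lay nearest to those of FLT3 were PFKL, HNRNPDL and APH1A, at Euclidean distances of 0.07, 0.09 and 0.09.

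KIT, the receptor for stem cell factor (chromosome 4, 54657957 to 54740715), had 0.187 and 0.121 FPKM under sh-NC, is listed at 0 in sh-CEBPG#3 replicate 1, and had 0.0235 FPKM in replicate 2. Both control values were above both knockdown values, at a level under the filter. When genes of any level were tested, its log2 fold change was -0.19 (limma adjusted p = 0.0469).

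Among the chains of the GM-CSF and IL-3 receptors the shared chain rose, and the ligand-specific chains were less settled. CSF2RB, the common beta chain (chromosome 22, 36913628 to 36940439), had 2.56 and 2.70 FPKM under sh-NC and 4.90 and 4.72 FPKM under sh-CEBPG#3. The ratio of the means was 1.83, with no overlap between the groups. Its log2 fold change was 0.68 (standard error 0.10, limma adjusted p = 0.000467).

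IL3RA (CD123, chromosome X, 1336785 to 1382689) is the IL-3-binding chain and a surface antigen of leukemic progenitors. It had 14.4 and 16.0 FPKM under sh-NC and 20.5 and 17 FPKM under sh-CEBPG#3. The lower knockdown library stood just above the higher control library. The log2 fold change of 0.28 (standard error 0.10, limma adjusted p = 0.0448) was near the threshold. It shrank to 0.21 without sh-NC replicate 1 and to 0.16 without sh-CEBPG#3 replicate 1. Without a filter the limma adjusted p = 0.133, and its most abundant row alone gave -0.01.

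CSF2RA, the GM-CSF-binding chain (chromosome X, 1268814 to 1325218), had 1.84 and 0.501 FPKM under sh-NC and 0.919 and 0.295 FPKM under sh-CEBPG#3. The groups overlapped, and the libraries of a group differed more than the group means, 1.17 ± 0.945 and 0.607 ± 0.441 FPKM (SD, n = 2). The log2 fold change of -0.39 (standard error 0.27, limma adjusted p = 0.28) turned to 0.07 without sh-NC replicate 1 and was -0.85 without sh-NC replicate 2. CSF2RA and IL3RA lie in the pseudoautosomal region, and RefSeq lists a promoter window for each on both chromosomes X and Y. How reads matching more than 1 place were counted is not given in the sources used here, so the levels of these genes are uncertain. The FPKM ratio of IL3RA to CSF2RB was 5.63 and 5.93 under sh-NC and 4.19 and 3.61 under sh-CEBPG#3. That of CSF2RA to CSF2RB was 0.718 and 0.186 against 0.187 and 0.0625. The ratios between chains are given as values with no test.

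The G-CSF receptor and the IL-6 receptor held their levels within a narrow interval, while gp130 rose from a low level. CSF3R, which drives granulocyte production (chromosome 1, 36466043 to 36483314), had 29 and 29.8 FPKM under sh-NC and 32.9 and 30.9 FPKM under sh-CEBPG#3. The knockdown values were the higher ones by a small margin, and the log2 fold change of 0.11 had a 95% interval from -0.06 to 0.28 (limma adjusted p = 0.26). IL6R, the IL-6-binding chain (chromosome 1, 154405343 to 154469450), had 34.6 and 37.2 FPKM under sh-NC and 39.9 and 36.9 FPKM under sh-CEBPG#3. Its groups overlapped, and the log2 fold change was 0.09 with a 95% interval from -0.08 to 0.27 (limma adjusted p = 0.364).

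IL6ST (gp130, chromosome 5, 55935095 to 55994963) is the signalling chain shared by IL-6, IL-11, LIF and oncostatin M. It had 0.903 and 1.08 FPKM under sh-NC and 2.73 and 2.52 FPKM under sh-CEBPG#3. Both knockdown libraries were above both controls, at 2.65 times the control mean. The log2 fold change was 0.87 (standard error 0.12, limma adjusted p = 0.000324) and reached 1.40 with a pseudocount of 0.01. The FPKM ratio of IL6R to IL6ST was 38.4 and 34.5 under sh-NC and 14.6 in each library under sh-CEBPG#3. Against the coding row of IL6ST alone, NM_002184, the ratios were 91.1 and 34.9 under sh-NC and 15.7 and 14.7 under sh-CEBPG#3, so the sh-NC replicate 1 value depends on the non-coding row. On either sum the IL6R mRNA was the more abundant in all 4 libraries, and the ratio was lower in both knockdown libraries.

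IL10RA, the IL-10-binding chain through which IL-10 restrains myeloid cells (chromosome 11, 117986394 to 118003037), had the largest log2 fold change of the 9 receptors tested. It had 1.97 and 2.5 FPKM under sh-NC and 9.21 and 8.69 FPKM under sh-CEBPG#3, far apart and with no overlap. The means were 2.24 ± 0.378 and 8.95 ± 0.373 FPKM (SD, n = 2), a ratio of 4.0. The log2 fold change was 1.63 (standard error 0.11, limma adjusted p = 3.15e-06), and it lay between 1.51 and 1.74 with each library left out. Its partner IL10RB had 16.7 and 18.4 FPKM under sh-NC and 22.7 and 23.0 FPKM under sh-CEBPG#3, a log2 fold change of 0.36 (standard error 0.08, limma adjusted p = 0.00538). The FPKM ratio of IL10RA to IL10RB was 0.118 and 0.136 under sh-NC and 0.406 and 0.378 under sh-CEBPG#3, so that IL10RB remained the more abundant chain. The IL10RA promoter window, which lies within this span, held both the C/EBP and the PU.1 letters shown above.

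The receptors were listed as 24 RefSeq rows, of which 21 had values, and the 3 without values all belonged to CSF2RA. When single rows were tested, 15 passed the filter and 2 rose, beside 8.24% of the 18624 rows tested in all (4.16% higher, 4.08% lower). These were NM_001558 of IL10RA, with 1.78 and 2.45 FPKM in sh-NC and 7.54 and 7.65 FPKM in sh-CEBPG#3 cells (limma adjusted p = 0.0225), and NM_001288705 of CSF1R, with 3.32 and 4.13 against 7.63 and 7.98 FPKM (limma adjusted p = 0.0383). The only row of CSF2RB (limma adjusted p = 0.0513) and the coding row of IL6ST (limma adjusted p = 0.0846) did not pass. With rows of any level only the IL10RA row passed. FLT3 came almost wholly from its protein-coding row NM_004119, which held 93.2% to 95.9% of the sum in each library, with the rest in the non-coding row NR_130706. For CSF3R the row NM_000760 held 85.6% to 91.8%. For IL6R the row NM_181359, which encodes a soluble form of the receptor, held 19.5% and 9.43% under sh-NC and 7.72% and 13.2% under sh-CEBPG#3, and the groups overlapped.

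The rows of the 2 pseudoautosomal genes and of IL6ST were the most unsteady between libraries of a group. For IL3RA the row NM_001267713 held 38.3% of the sum in sh-CEBPG#3 replicate 2 and at most 4.71% in the other 3 libraries. For IL6ST the non-coding row NR_120480 held 57.9% in sh-NC replicate 1 and at most 7.22% in the other 3. The non-coding row NR_109969 of CSF1R held 24.7% and 8.48% under sh-NC and 9.39% and 7.28% under sh-CEBPG#3. For CSF2RA the row NM_001161529 is listed at 0 in both sh-CEBPG#3 libraries, and NM_001161530 in sh-CEBPG#3 replicate 2 alone. How reads shared by the rows of a gene were divided is not given in the sources used here.

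**Figure D3:**
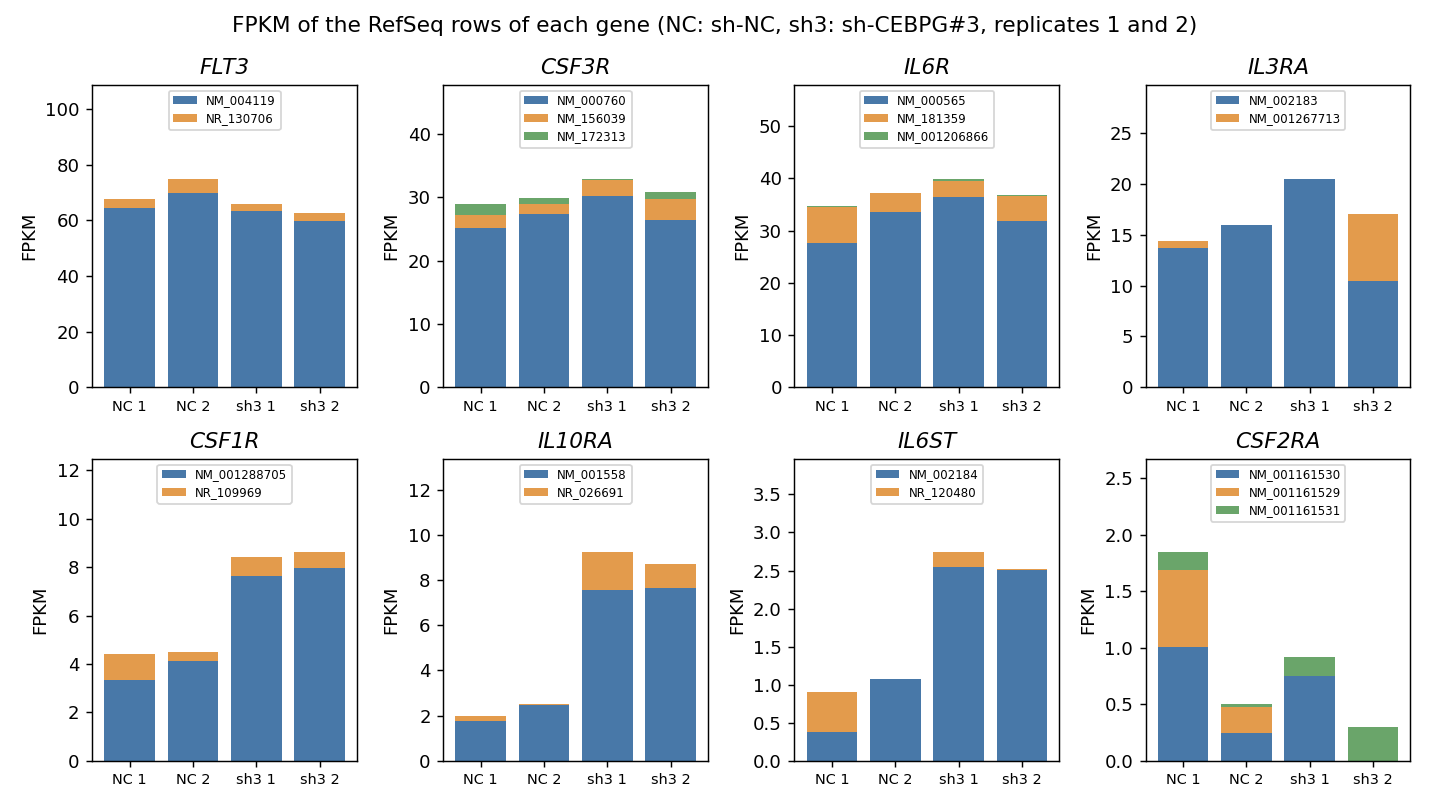
FPKM of the RefSeq rows of 8 receptor genes, stacked per library, on a separate linear axis for each gene; NC is sh-NC, sh3 is sh-CEBPG#3, and 1 and 2 are the replicates. A protein-coding row makes up most of FLT3, CSF3R and IL6R in every library, while the split shifts most between replicates for IL3RA, IL6ST and CSF2RA.

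The ligands of these receptors were scarce, and 3 of them fell. Of 16 ligand genes 9 had values and 4 were tested, of which 3 fell, while 23.8% of all genes tested fell. The median log2 fold change was -0.64 over the 4 ligands and -0.04 over all genes tested. FLT3LG, the FLT3 ligand, had 2.65 and 2.28 FPKM under sh-NC and 1.10 in each library under sh-CEBPG#3 (log2 fold change -0.72, limma adjusted p = 0.00101). OSM, oncostatin M, had 4.05 and 3.63 against 2.27 and 1.97 FPKM (-0.63, limma adjusted p = 0.00136). CNTF, a gp130-family neurotrophic factor, had 1.48 and 1.33 against 0.752 and 0.342 FPKM (-0.65, limma adjusted p = 0.00774). KITLG, stem cell factor, had 2.17 and 2.39 against 3.51 and 2.70 FPKM and did not pass the test (limma adjusted p = 0.0648), while 1 ligand passed as higher with quantile normalization and without sh-CEBPG#3 replicate 2. CSF2, IL3, IL6, IL10, IL5, IL11 and IL34 were not listed, and CSF1, a ligand of CSF1R, is listed at 0 and had 0.0454 FPKM under sh-NC against 0.266 and 0.452 FPKM under sh-CEBPG#3, below the filter.

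Other receptors of the same families mostly rose where they were tested. Of 29 genes 22 had values and 11 were tested, of which 7 rose and 1 fell, with a median of 0.32. Called genes were thus 72.7% of the 11, beside 42.2% of all genes tested (18.5% higher, 23.8% lower). The 3 largest rises were those of IL12RB1 (the shared chain of the IL-12 and IL-23 receptors, 4.19 and 4.68 against 7.29 and 7.14 FPKM, log2 fold change 0.60), IL21R (0.37) and IL13RA1 (0.36). The gene that fell was IL7R, with 1.20 and 1.53 against 0.317 and 0.463 FPKM (-0.76, limma adjusted p = 0.00197). Without sh-NC replicate 1 the counts were 5 higher and 3 lower.

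Of 17 kinases, adaptors and STATs tested 5 rose and 3 fell, or 47.1% beside 42.2% of all genes tested, with a median of 0.07, and without sh-CEBPG#3 replicate 1 the counts were 2 and 3. The adaptor GRB2 (0.39) and the guanine nucleotide exchange factor VAV1 (0.35) rose, as did JAK2 (0.34, limma adjusted p = 0.0184) and STAT3 (0.23, limma adjusted p = 0.032). PLCG2 (-0.43), the SRC-family kinase LYN (-0.39) and STAT5B (-0.34) fell, while STAT5A at 6.10 and 7.75 against 7.49 and 7.08 FPKM and JAK1 at 15.9 and 17.5 against 16.1 and 15.7 FPKM had overlapping groups.

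Negative regulators were led by a fall of DUSP6, the ERK phosphatase, from 13.0 and 13.9 to 4.95 and 5.33 FPKM (log2 fold change -1.24, limma adjusted p = 4.94e-06). Of 18 genes tested 3 rose and 4 fell, or 38.9% beside 42.2% of all genes tested, with a median of -0.11, and without sh-CEBPG#3 replicate 1 the counts were 1 and 3. The JAK-STAT feedback inhibitors CISH (-0.63) and SOCS1 (-0.42) fell, and the ubiquitin ligase CBL (0.46), the JAK2 inhibitor SH2B3 (0.32) and the phosphatase PTPN6 (0.23) rose. Of the genes for receptor shedding and folding, 3 of 8 rose and 1 fell, beside 42.2% of all genes tested in either direction, with a median of 0.11. ADAM17, the sheddase of IL6R and CSF1R, rose from 7.60 and 7.22 to 14.6 and 13.7 FPKM (0.85, limma adjusted p = 4.25e-05), beside HSP90B1 (0.40) and ADAM10 (0.28), while the chaperone CALR fell (-1.50). With equal totals or quantile normalization 4 of these 8 rose and 3 fell, and without sh-CEBPG#3 replicate 1 the counts were 1 and 1.

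Target genes of STAT5 and STAT3 were split, with 5 of 14 tested genes higher and 6 lower and a median of -0.08. These are 78.6% of the 14, beside 42.2% of all genes tested. PIM1, a survival kinase, fell from 58.5 and 60.9 to 21.4 and 19.6 FPKM (log2 fold change -1.50, limma adjusted p = 5.49e-07), beside ID1 (-1.13) and MYC (-0.75). BCL6 (0.69), JUNB (0.65) and the anti-apoptotic MCL1 (0.48) rose. CISH, SOCS2, SOCS3 and OSM stand on this list and on another above.

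Of the transcription factors known to act on receptor genes, 4 of 14 tested rose and 6 fell, with a median of -0.18, and CEBPG itself is among the 6. Together they are 71.4% of the 14, beside 42.2% of all genes tested. The progenitor factors GATA2 (-1.35), which had 8.92 and 10.7 against 3.08 and 3.37 FPKM, and MEIS1 (-0.87), which had 6.65 and 7.34 against 3.42 and 3.29 FPKM, fell. CEBPD (0.76), CEBPB (0.70) and IRF8 (0.44) rose, in cells where SPI1, the gene for PU.1, had 114 and 125 against 157 and 144 FPKM (0.33, limma adjusted p = 0.00732). RUNX1, whose letters stand in the CSF1R stretch above, had 33.3 and 33.6 against 27.6 and 25.7 FPKM (-0.32, limma adjusted p = 0.00727).

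**Figure D4:**
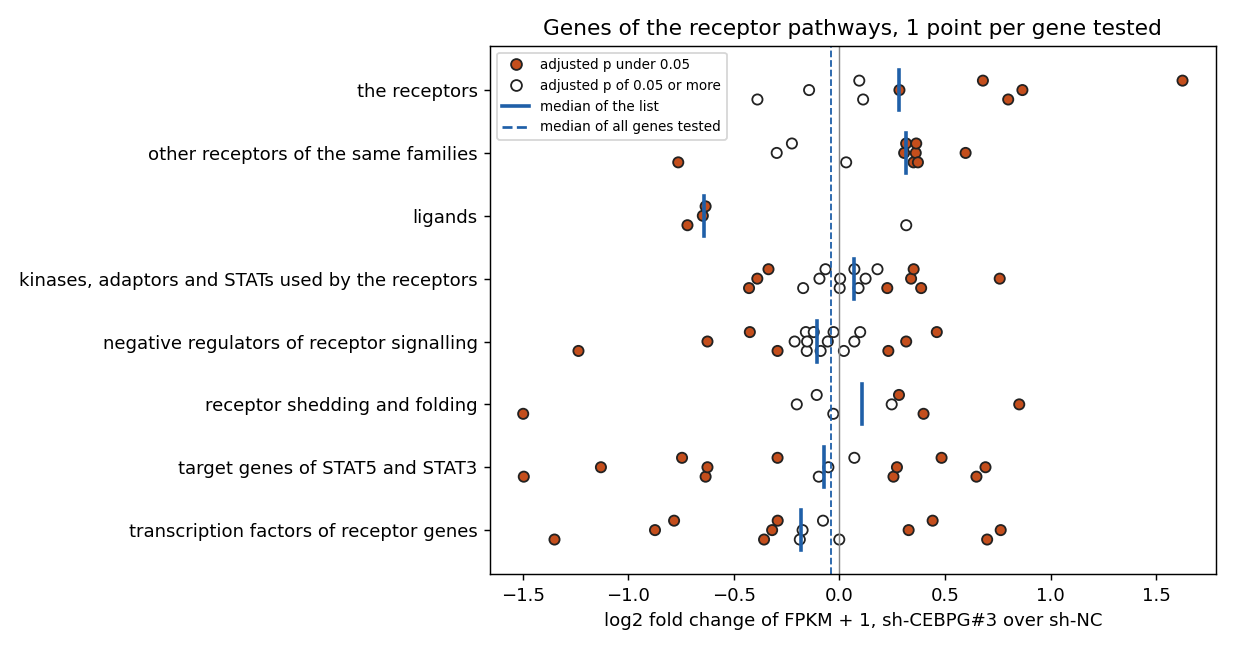
Log2 fold change of FPKM + 1 in sh-CEBPG#3 over sh-NC cells for the receptors and 7 lists of pathway genes, 1 point per gene tested; filled points passed an adjusted p under 0.05, solid bars are list medians and the dashed line is the median of all genes tested. The receptors and the other receptors of their families lie mostly to the right, 3 of 4 ligands to the left, and the remaining lists on both sides.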

How the data were processed

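RNA-seq libraries of MV4-11 cells (2 sh-NC, 2 sh-CEBPG#3) were compared. Per the methods, the authors mapped filtered reads with HISAT (HISAT2 2.0.5 and hg38 in the submitters' processing notes) and deposited FPKM values for 28780 RefSeq transcripts, of which 199 have no value. The program that computed FPKM and the annotation release are not given in the sources used here. The authors tested with DESeq2, which takes counts, so the values here were tested otherwise. Rows were summed by symbol (164 without a symbol stood alone), genes whose mean reached 0.5 FPKM were kept, and log2(FPKM + 1) was fitted with limma 3.58.1 in R 4.3.3 (lmFit, eBayes with a trend, no block), with Benjamini-Hochberg adjustment, and likewise for single rows. Count tests were not run: of 1027 rows under 0.06 FPKM in both sh-NC libraries at most 1.17% shared a ratio within 1%, so whole reads could not be recovered and no depth, counting interval or detection floor is given.

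The receptors and gene lists were chosen with earlier results of these data known. From each list the 3 largest rises and 3 largest falls with an adjusted p under 0.05 and no overlap were named, as were the 3 genes nearest to FLT3, and 1 gene that this rule names is not reported here. KITLG, CSF1, STAT5A, JAK1, JAK2, STAT3, SPI1, RUNX1, CD14 and the other marker genes, and genes not listed, were named after their values were seen. The ratio of IL6R to the coding row of IL6ST was added after seeing the data. The alternatives run were equal totals, quantile normalization, the most abundant row of each gene, a block on the replicate number, the omission of each library, a pseudocount of 0.1 or 0.01, and a filter at 1 FPKM or none. Gene positions and promoters come from RefSeq on GRCh38.p14 and were handled with Python 3.11.15. No protein sequence was used here.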

Additional observations from a re-analysis of the deposited data

How the results depend on the processing

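Of the 106 values of the 9 receptors tested under the alternatives, 95 kept their direction and their side of the threshold, 4 lost the call, 5 gained it (FLT3 and CSF2RA) and 2 reversed, and KIT passed in the fit without a filter, the only fit that included it. The 4 lost calls were all of IL3RA, which also reversed to -0.0089 with its most abundant row, and CSF2RA reversed to 0.0706 without sh-NC replicate 1, and was -0.85 to 0.07 over the omitted libraries. The number of receptors called was 5, with 4 to 6 under the alternatives, omitted libraries included. With an absolute log2 fold change above 1 it was 1, and 2 with a pseudocount of 0.1, with 0.01 and with the most abundant row, where IL6ST joined IL10RA. Over all genes that count was 409, and 779 and 819 with pseudocounts of 0.1 and 0.01, which weigh low values more. Receptor rows called numbered 2, with 1 without a filter and 3 with a pseudocount of 0.1 or a filter at 1 FPKM. The CEBPG decrease stayed between -0.82 and -0.76, and between -0.87 and -0.70 when a library was omitted. Counts of called genes per list, over the fits with a library left out, were 5 to 8 for kinases, adaptors and STATs, 4 to 7 for negative regulators and 2 to 4 for shedding and folding genes, which had 7 with equal totals and 7 with quantile normalization. The causes were not tested.

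The deviations of same-numbered libraries from their group means correlated at 0.06 over genes, so little variation was shared by number. These deviations rest only on the difference between the libraries within each group. They cannot decide whether same-numbered libraries were prepared together. Under a replicate block 4761 genes passed against 5128, with 6 receptors (CSF2RA added, limma adjusted p = 0.0442) and 0 receptor rows called. A fit without 1 library leaves a lone library in its group, which is assumed to vary like the other group. Calls gained or lost in such fits rest on that assumption. The FPKM values give no read depth, so low genes such as KIT, CSF2RA and IL6ST could not be weighted by it.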
